A study of Mus musculus with 38 samples.

Results

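The IRE1-XBP1 and ATF6 branches of the unfolded protein response were followed through 10 of their transcripts in the left ventricle in a mouse model of heart failure with preserved ejection fraction (HFpEF). The 10 genes were taken by name from the deposited tables, which list 29564 genes, and all 10 passed the filter on low counts and were among the 13765 genes tested. They comprise the sensors Ern1 and Atf6, the transcription factor Xbp1, the chaperones Hspa5, Hsp90b1 and Calr, the co-chaperone Dnajb9, and the degradation genes Herpud1, Sel1l and Edem1. Bulk RNA-seq was done on 38 wild-type C57BL6 mice, with 1 library per mouse. Vehicle was given to 8 non_failing mice and to 8 mice with HFpEF (HFpEF+Veh). A further 11 HFpEF mice received TYA-018, which inhibits the cytosolic deacetylase HDAC6 (HFpEF+TYA-018), and 11 received empagliflozin, which inhibits the glucose transporter SGLT2 (HFpEF+SGLT2i). HFpEF was induced with a high-fat diet and L-NAME, an inhibitor of nitric oxide synthases, so all 3 HFpEF groups carry both exposures and the effect of diet cannot be told apart from that of L-NAME. The drugs were dosed orally once per day after the disease was established, and the labels give no age.

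The endoplasmic reticulum folds secreted and membrane proteins. When unfolded proteins accumulate there, the membrane kinase and endoribonuclease IRE1 (encoded by Ern1) removes a short intron from the Xbp1 transcript, and the spliced transcript encodes an active transcription factor. ATF6 travels to the Golgi, where proteases release its cytosolic part as another transcription factor. Together these factors induce chaperones such as BiP (Hspa5) and machinery that returns misfolded proteins to the cytosol for degradation (ERAD). The deposited tables give 1 value per gene, so spliced and unspliced Xbp1, the cleavage of ATF6 and protein levels were not measured.

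ATF6 and its partner NF-Y bind the endoplasmic reticulum stress element (ERSE), spelled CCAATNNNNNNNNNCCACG. A shorter variant, ERSE-II, is spelled ATTGG and CCACG with any 1 base between them. Both were searched on both strands of RefSeq promoter windows, which run from 250 bases before to 50 bases after an annotated start on GRCm38.p6. A window was found for 9 of the 10 genes, with Atf6 the exception. ERSE stood in 39 of 32851 windows (0.119%), and among the 10 genes in Hspa5, Hsp90b1 and Calr. ERSE-II stood in 12 windows (0.0365%), among them that of Herpud1. An XBP1 and ATF6 element spelled TGACGTGG stood in 222 windows (0.676%) and in 0 of the 10 genes. The 5 matches are shown because they divide the 10 genes by sequence alone, without reference to their expression. Each is printed 5′ to 3′ on the strand of its gene with the match in capitals, and CGTGG ahead of ATTGG is ERSE read on the opposite strand.
Hspa5, chr2:34772020-34772048, plus strand, ERSE: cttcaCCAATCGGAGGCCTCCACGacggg
Hsp90b1, chr10:86705633-86705661, minus strand, ERSE: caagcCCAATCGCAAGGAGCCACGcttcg
Hsp90b1, chr10:86705528-86705556, minus strand, ERSE: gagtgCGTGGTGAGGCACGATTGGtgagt
Calr, chr8:84847070-84847098, minus strand, ERSE: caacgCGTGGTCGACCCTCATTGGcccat
Herpud1, chr8:94386368-94386396, plus strand, ERSE-II: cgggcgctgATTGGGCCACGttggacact

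Counted from the RefSeq start, the match of Hspa5 ran from -65 to -47 and that of Herpud1 from -52 to -42. Hsp90b1 held a forward match from -212 to -194 and a reverse match from -107 to -89, and Calr a reverse match from -162 to -144. The printed stretches of Hsp90b1, Calr and Herpud1 lay upstream of the GENCODE gene models, whereas that of Hspa5 lay in an exon of its model, which starts further upstream. A match describes letters, not binding, and the letters were not found in the windows of Ern1, Xbp1, Dnajb9, Sel1l and Edem1.

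**Figure D1:**
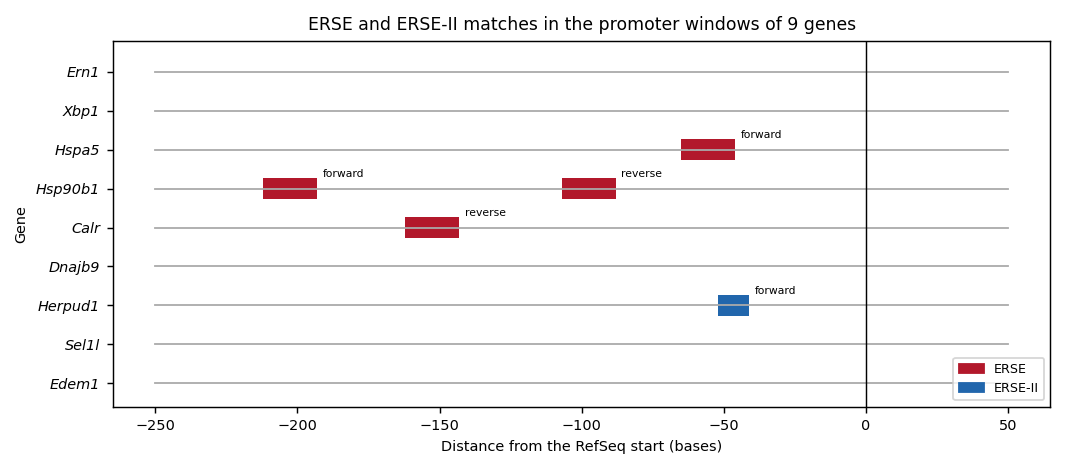
Positions of ERSE (red) and ERSE-II (blue) matches, in bases from the RefSeq start, in the promoter windows of 9 genes (1 line per gene, with the strand of each match). Hspa5, Hsp90b1 and Calr carry ERSE and Herpud1 carries ERSE-II.

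In GENCODE M21 on GRCm38 the sensors are at chr11:106394650-106487852 (Ern1, minus strand) and chr1:170704674-170867771 (Atf6, minus), and Xbp1 is at chr11:5520659-5525893 (plus). The chaperones are at chr2:34771970-34777547 (Hspa5, plus), chr10:86690209-86705509 (Hsp90b1, minus), chr8:84841850-84846934 (Calr, minus) and chr12:44205559-44210326 (Dnajb9, minus). The ERAD genes are at chr8:94386438-94395377 (Herpud1, plus), chr12:91806043-91849157 (Sel1l, minus) and chr6:108828641-108859356 (Edem1, plus).

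Libraries held 21.5 to 59.3 M counts (M, mega; median 29.5 M) with group medians of 28.8 to 29.8 M, and each of the 10 genes was counted at least 109 times in every library, the lowest being Ern1. Cardiomyocyte markers were abundant in every library, at 28968 to 52753 CPM (counts scaled to the library total, without TMM factors) summed over 10 genes. In contrast, 7 adipocyte markers summed to at most 0.844 CPM. Liver transcripts separated libraries and groups. Albumin (Alb) was at 493 TPM (transcript abundance per length and library) in HFpEF+Veh V2523 and 0.242 to 9.49 TPM in the 7 other HFpEF+Veh libraries. It was at 6.09 to 103 TPM in non_failing, 0.0428 to 0.822 TPM in HFpEF+TYA-018 and at most 2.78 TPM in HFpEF+SGLT2i. Summed over 18 hepatocyte markers, none of them at 0 in a whole group, levels were 42.0 to 585 CPM in non_failing, 5.13 to 3239 in HFpEF+Veh, 2.88 to 9.45 in HFpEF+TYA-018 and 3.36 to 20.9 in HFpEF+SGLT2i. Comparisons with HFpEF+Veh are therefore also given without V2523, and those of Hspa5, Manf and Sdf2l1 without the 4 libraries with Alb above 50 TPM (non_failing V2501, V2503 and V2504, and V2523).

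In TPM, which corrects for transcript length, the 10 genes fell into nearly the same order in all groups. In non_failing hearts Hspa5 was the highest at 88.7 ± 14.8 TPM (SD, n = 8), followed by Herpud1 at 79.3 ± 19.4, Calr at 66.9 ± 9.93 and Hsp90b1 at 57.0 ± 6.53. Neighbours among these 4 genes differed by less than the larger of their SDs. Xbp1 followed at 24.8 ± 3.66 TPM, Dnajb9 at 10.8 ± 1.85, and Sel1l at 6.99 ± 0.752 with Atf6 at 6.12 ± 1.26, the last 2 within 1 SD of each other. Edem1 (2.59 ± 0.460 TPM) and Ern1 (1.26 ± 0.234 TPM) were the lowest. The order was identical in the 3 HFpEF groups except at the top, where Herpud1 (77.9 to 83.8 TPM) stood above Hspa5 (67.4 to 69.9 TPM) in each of them.

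**Figure D2:**
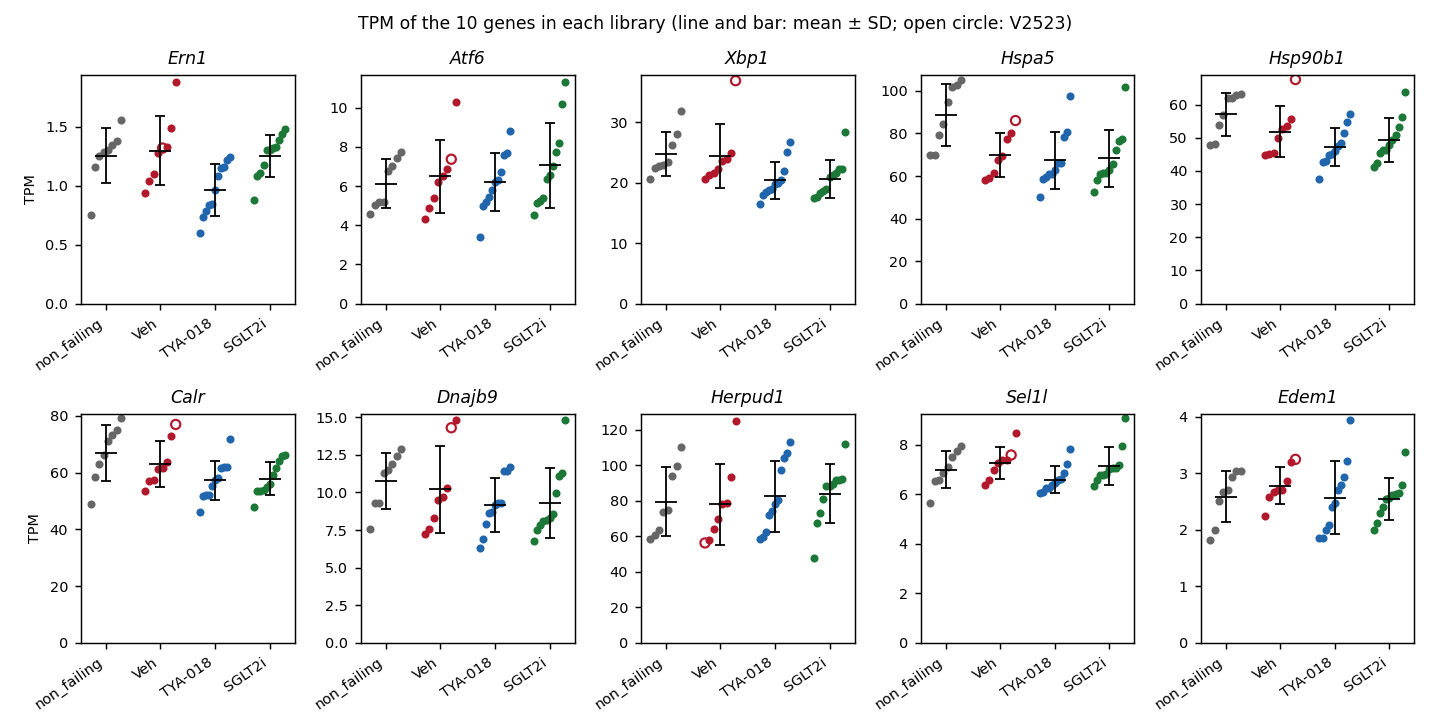
TPM of each gene (vertical axes, starting at 0) in every library of the 4 groups, with the mean and SD as black lines and V2523 as an open circle. Hspa5 was 69.7 to 105 TPM in non_failing and 58.0 to 86.1 TPM in HFpEF+Veh, and V2523 stands above the other HFpEF+Veh libraries for Xbp1 (36.9 TPM).

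The spread between mice of 1 group differed between the genes. Averaged over the 4 groups, the coefficient of variation of TPM was 25.9% for Atf6, 24.3% for Herpud1 and 22.5% for Dnajb9. It was 12.9% for Hsp90b1, 12.5% for Calr and 9.62% for Sel1l, which encodes the adaptor of the ERAD ubiquitin ligase. A change of a given size was therefore easier to detect for Sel1l than for Atf6.

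The first comparison asked how the HFpEF model differed from healthy hearts. The transcript of the chaperone BiP was lower in HFpEF+Veh: Hspa5 fell, and the other 9 genes did not pass the test. With edgeR's quasi-likelihood test at an adjusted p under 0.05, 1 of the 10 genes was called, against 3.15% of all genes tested (1.38% lower). At an unadjusted p under 0.05 there were 3 of 10, against 15.9%. Of the 10 genes, 8 had a negative log2 fold change, with a median of -0.12 against 0.01 over all genes. As this is bulk tissue, fewer cells of a type and less RNA per cell cannot be told apart.

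Hspa5 encodes BiP, which binds nascent chains and holds the stress sensors inactive. Its level was 69.7 TPM at the lowest, 89.7 at the median and 105 at the highest in non_failing. In HFpEF+Veh the corresponding values were 58.0, 68.5 and 86.1 TPM. The groups overlapped, but all 8 HFpEF+Veh libraries lay below the non_failing mean, 5 of the 8 lay below every non_failing library, and 4 of the 8 non_failing libraries lay above every HFpEF+Veh library. The means were 88.7 ± 14.8 TPM (SD, n = 8) and 69.9 ± 10.4 TPM (SD, n = 8). On the scale of counts normalized with TMM factors Hspa5 decreased by 26.9% in HFpEF+Veh. Its log2 fold change was -0.45 (SE 0.12, 95% interval -0.70 to -0.21, edgeR with Benjamini-Hochberg adjusted p = 0.0281).

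The call of Hspa5 depended on single libraries of both groups, while its log2 fold change stayed between -0.51 and -0.40 in all 38 fits that each left out 1 library. Without V2523, whose Hspa5 level was the highest of its group, the log2 fold change was -0.50 (edgeR adjusted p = 0.0144). The call was lost in 8 of these fits, namely without non_failing V2501, V2503 or V2504 or HFpEF+Veh V2526, V2527, V2528, V2529 or V2530, with adjusted p at most 0.0774. It was also lost with limma on log2(TPM + 1), the scale of the study, with limma on log2(TPM + 0.1) and with library size alone, and DESeq2 made the call. The 3 highest non_failing libraries for Hspa5, V2504 (105 TPM), V2501 (103 TPM) and V2503 (102 TPM), were also the 3 with the most Alb (103, 52.9 and 63.1 TPM). Without these 3 and V2523 the log2 fold change was -0.36 (SE 0.14, edgeR adjusted p = 0.228), and adjusted p ranged from 0.0102 to 0.228 over all 46 alternatives. Of the 18 hepatocyte markers, edgeR called 1 in this comparison with all libraries (Hpx, higher), 15 lower without V2523, and 2 lower without the 4 libraries. DESeq2 called 4 on all libraries, all lower and Hpx among them. Hpx was also among the 15 that edgeR called lower without V2523, so its direction depended on V2523 and on the tool. The part of liver RNA in the Hspa5 difference was not tested. Other markers moved between the same groups: 4 of 10 cardiomyocyte markers were called lower in HFpEF+Veh (Myl2, Myl3, Tnni3 and Tnnt2; summed level 37548 to 52753 CPM in non_failing and 37764 to 43942 CPM in HFpEF+Veh). Of 10 fibroblast markers, 3 were called higher (Lum, Pdgfra and Postn; 1161 to 1780 and 1117 to 2535 CPM). Of 9 pericyte and smooth muscle markers 2 were called lower (Abcc9 and Rgs5), whereas 6 of the 9 had a positive log2 fold change (median 0.05). The part of cell composition in the Hspa5 difference was not tested.

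Hsp90b1 encodes GRP94, the HSP90 of the endoplasmic reticulum, which folds integrins and Toll-like receptors. Its level was 47.8 to 63.1 TPM with a median of 59.4 in non_failing and 44.7 to 67.6 TPM with a median of 51.4 in HFpEF+Veh. The groups overlapped, and the highest value of both was V2523. The log2 fold change was -0.24 (SE 0.08, edgeR p = 0.00575, adjusted p = 0.106). Without V2523 it was -0.29 with an adjusted p of 0.0218, which passed the threshold, as it did without V2510, and the adjusted p ranged from 0.0218 to 0.363 over the 46 alternatives. Hsp90b1 overlaps the same-strand transcript Gm15344, and its estimated count was not whole in 28 of 38 libraries (tolerance 0.01), so part of its reads was shared between genes.

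Calr encodes calreticulin, a calcium-binding lectin chaperone of glycoproteins. It was 48.8 to 79.1 TPM (median 68.8) in non_failing and 53.4 to 77.0 TPM (median 61.5) in HFpEF+Veh, so that the HFpEF+Veh range lay inside the non_failing one. The log2 fold change of Calr was -0.20 (SE 0.08, edgeR adjusted p = 0.186), and -0.25 without V2523 (adjusted p = 0.0768). Dnajb9 encodes ERdj4, a co-chaperone of BiP that is induced by XBP1. It was 7.55 to 12.9 TPM (median 11.4) in non_failing and 7.26 to 14.8 TPM (median 9.58) in HFpEF+Veh, and its log2 fold change was -0.19 (SE 0.16, edgeR adjusted p = 0.616).

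The sensors and the transcription factor did not pass the test. Ern1 was 0.754 to 1.56 TPM (median 1.29) in non_failing and 0.941 to 1.88 TPM (median 1.30) in HFpEF+Veh. Its log2 fold change was -0.02 (95% interval -0.25 to 0.21). Atf6 was 4.56 to 7.75 TPM (median 5.99) and 4.31 to 10.3 TPM (median 6.37), with a log2 fold change of 0.01 and an interval of -0.31 to 0.33. Xbp1 was 20.7 to 31.8 TPM (median 23.2) in non_failing and 20.6 to 36.9 TPM (median 22.9) in HFpEF+Veh. Its highest value of all 38 libraries was V2523, and the other 7 HFpEF+Veh libraries averaged 22.6 ± 1.58 TPM (SD, n = 7). The log2 fold change of Xbp1 was -0.13 (SE 0.11, edgeR adjusted p = 0.577) and -0.24 (SE 0.09, adjusted p = 0.137) without V2523.

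The ERAD genes did not pass either. Herpud1 encodes a membrane protein that organizes the degradation complex. It was 58.7 to 110 TPM (median 74.1) in non_failing and 56.2 to 125 TPM (median 74.0) in HFpEF+Veh, and the log2 fold change was -0.12 (95% interval -0.45 to 0.22). With 1 library left out the log2 fold change ran from -0.26 to -0.03. Herpud1 shares its locus with the antisense gene Gm15890. V2523, the highest HFpEF+Veh library for 5 of the 10 genes (Xbp1, Hspa5, Hsp90b1, Calr and Edem1), was the lowest for Herpud1. Sel1l was 5.65 to 7.94 TPM in non_failing and 6.35 to 8.48 TPM in HFpEF+Veh, and its interval was the narrowest of the 10, with a log2 fold change of -0.05 (95% interval -0.13 to 0.04). Edem1 encodes a lectin that routes mannose-trimmed glycoproteins to degradation. It was 1.83 to 3.04 TPM in non_failing and 2.24 to 3.25 TPM in HFpEF+Veh, and the log2 fold change was 0.03 (95% interval -0.22 to 0.28). Its estimated count was not whole in 35 of 38 libraries. Without V2523 the log2 fold changes of the genes not yet given were -0.02 for Ern1, -0.01 for Atf6, -0.25 for Dnajb9, -0.07 for Herpud1, -0.05 for Sel1l and 0.02 for Edem1, and none of these 6 passed (edgeR adjusted p from 0.431 to 0.988).

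**Figure D3:**
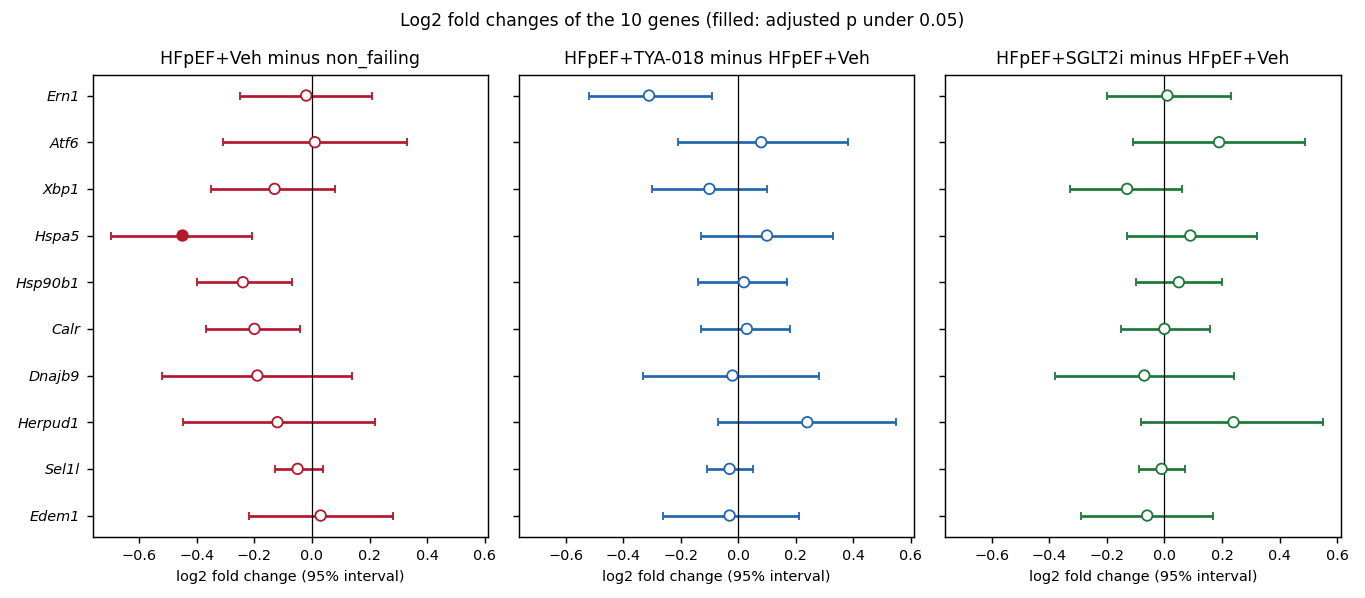
Log2 fold changes of the 10 genes (points, with 95% intervals as bars) in HFpEF+Veh against non_failing and in each drug group against HFpEF+Veh, filled where the edgeR adjusted p was under 0.05. The filled point is Hspa5 at -0.45 in HFpEF+Veh against non_failing, and no point is filled for either drug.

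The next comparisons asked whether TYA-018 or empagliflozin changed these transcripts in HFpEF hearts. For TYA-018 against HFpEF+Veh, 0 of the 10 genes were called by edgeR, against 1.93% of all genes tested, and 1 (Ern1) had an unadjusted p under 0.05, against 17.5%. For empagliflozin 0 of 10 were called, against 0.850% of all genes (117 genes, and 2 without V2523), and 0 had an unadjusted p under 0.05, against 1383 of the 13765 genes (10%). DESeq2 and limma on log2(TPM + 1) also called 0 of 10 in both comparisons. Median log2 fold changes over the 10 genes were 0.00 and 0.01.

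Hspa5 was 50.2 to 97.8 TPM (median 62.7) in HFpEF+TYA-018 and 52.5 to 102 TPM (median 62.9) in HFpEF+SGLT2i, and 1 library of each group (V2543 and V2562) lay above every HFpEF+Veh library. Its log2 fold change against HFpEF+Veh was 0.10 for TYA-018 (95% interval -0.13 to 0.33) and 0.09 for empagliflozin (95% interval -0.13 to 0.32). Intervals of Hsp90b1 ran from -0.14 to 0.17 for TYA-018 and from -0.10 to 0.20 for empagliflozin. Those of Calr ran from -0.13 to 0.18 and from -0.15 to 0.16. Without V2523 the log2 fold changes of Hspa5, Hsp90b1 and Calr were 0.15, 0.08 and 0.07 for TYA-018 and 0.14, 0.10 and 0.05 for empagliflozin, and none passed (edgeR adjusted p from 0.50 to 0.852). Under scaling by library size alone the log2 fold changes of Hspa5, Hsp90b1 and Calr for TYA-018 were -0.03, -0.11 and -0.10, a scaling that moved the median of all genes in this comparison to -0.14.

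The lowest p among the 10 genes for either drug against HFpEF+Veh belonged to Ern1, the gene of the IRE1 kinase. In HFpEF+TYA-018 it was 0.596 to 1.24 TPM (median 0.966), against 0.941 to 1.88 TPM (median 1.30) in HFpEF+Veh and 0.877 to 1.48 TPM (median 1.30) in HFpEF+SGLT2i. All 11 HFpEF+TYA-018 libraries lay below the HFpEF+Veh mean and 5 lay below every HFpEF+Veh library. The log2 fold change of Ern1 was -0.31 against HFpEF+Veh (SE 0.11, edgeR p = 0.00659, adjusted p = 0.116), which did not pass. It was called under library size alone (log2 fold change -0.43, adjusted p = 0.0208), and adjusted p ranged from 0.0208 to 0.253 over the 46 alternatives. In HFpEF+SGLT2i the log2 fold change of Ern1 against HFpEF+Veh was 0.01 (95% interval -0.20 to 0.23). Without V2523 the values of Ern1 were -0.31 (adjusted p = 0.125) and 0.01.

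Herpud1 had the highest positive log2 fold change under both drugs, at 0.24 each (95% intervals -0.07 to 0.55 and -0.08 to 0.55), and did not pass the test. Without V2532, the highest HFpEF+Veh library for Herpud1, both were 0.38 (edgeR adjusted p = 0.167 and 0.226), and without V2523 they were 0.20 and 0.19. It was 58.2 to 113 TPM (median 78.2) in HFpEF+TYA-018 and 47.7 to 112 TPM (median 88.3) in HFpEF+SGLT2i, within a HFpEF+Veh range of 56.2 to 125 TPM except for 1 HFpEF+SGLT2i library. Xbp1 was 16.5 to 26.7 TPM (median 19.8) in HFpEF+TYA-018 and 17.4 to 28.4 TPM (median 20.9) in HFpEF+SGLT2i. Its log2 fold changes were -0.10 (edgeR adjusted p = 0.631) and -0.13 (adjusted p = 0.681). Xbp1 lay below every HFpEF+Veh library in 8 of 11 HFpEF+TYA-018 and 5 of 11 HFpEF+SGLT2i libraries in TPM. Most genes were lower on that scale, as limma on log2(TPM + 1) gave 24.4% and 34.1% of all genes a positive log2 fold change. The share of all genes with such counts of libraries was not computed. Log2 fold changes of the remaining genes (Atf6, Dnajb9, Sel1l and Edem1) lay between -0.07 and 0.19, or between -0.04 and 0.20 without V2523. Without V2523, the log2 fold changes of Xbp1 were 0.02 (adjusted p = 0.937) and -0.03 (adjusted p = 0.924). With V2523, edgeR called all 18 hepatocyte markers lower under each drug than in HFpEF+Veh (against 1.93% and 0.850% of all genes called), and without it 3 of 18 for TYA-018 and 0 of 18 for empagliflozin. On all libraries DESeq2 called 14 of 18 for each drug, and limma 0 of the 7 markers it tested.

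Compared with each other, TYA-018 and empagliflozin differed in 0 of the 10 genes by edgeR, against 0% of all genes tested, and 1 gene (Ern1) had an unadjusted p under 0.05, against 13.2%. DESeq2 called 185 of all genes. DESeq2 and limma called 0 of the 10. The log2 fold change of Ern1 in HFpEF+TYA-018 against HFpEF+SGLT2i was -0.32 (SE 0.10, 95% interval -0.52 to -0.12, edgeR p = 0.00240, adjusted p = 0.134, range 0.0738 to 0.251 over the 46 alternatives). In 5 of 11 HFpEF+TYA-018 libraries Ern1 was below every HFpEF+SGLT2i library in TPM. On that scale limma on log2(TPM + 1) gave 35.5% of all genes a positive log2 fold change in this comparison. Intervals of the other 9 genes included 0, from the narrowest for Sel1l (-0.10 to 0.05) to the widest for Herpud1 (-0.28 to 0.29), with Hspa5 at 0.01 (-0.20 to 0.21).

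The drug-treated hearts were also set beside non_failing hearts, which share the same 8 controls with the first comparison. In both, Hspa5 was the gene among the 10 that edgeR called, and it was lower than in non_failing. DESeq2 called Ern1, Hsp90b1 and Hspa5 in HFpEF+TYA-018 and limma Hsp90b1 and Hspa5, all lower, and both called Hspa5 in HFpEF+SGLT2i. In HFpEF+TYA-018, 1 of 10 was called against 7.39% of all genes (3.39% lower), and 5 of 10 had an unadjusted p under 0.05, against 22.0%, with Hspa5 at -0.35 (SE 0.11, edgeR adjusted p = 0.0454) and below the non_failing mean in 10 of 11 libraries. In HFpEF+SGLT2i, 1 of 10 was called against 6.45% (2.99% lower), and 4 of 10 had an unadjusted p under 0.05, against 19.6%, with Hspa5 at -0.36 (SE 0.11, adjusted p = 0.0450) and below that mean in 10 of 11 libraries. In the same comparisons edgeR called 16 and 15 of 18 hepatocyte markers and 1 (Myl3) and 4 (Myl2, Myl3, Tnni3 and Tnnt2) of 10 cardiomyocyte markers lower, and without the 4 libraries with Alb above 50 TPM 17 and 16 of the hepatocyte markers. Among 10 fibroblast markers edgeR called Lum higher in HFpEF+TYA-018, and Pdgfra and Tcf21 in HFpEF+SGLT2i, 1 of them higher and 1 lower. Of 9 pericyte and smooth muscle markers, Acta2 and Rgs5 were called in HFpEF+TYA-018, 1 higher and 1 lower, and 0 in HFpEF+SGLT2i. Fabp4 was called higher in HFpEF+TYA-018, where 8 of 10 endothelial markers had a negative log2 fold change. The part of all these markers in the Hspa5 values was not tested. The call of Hspa5 was kept in 19 and 21 of 38 fits that left out 1 library. Non_failing V2501, V2502, V2503, V2504, V2507 and V2508 were among the libraries without which it was lost in both comparisons, with adjusted p of at most 0.0970 and 0.106. In both it was also lost without V2528, V2546, V2549, V2565, V2573 or V2574. It was further lost in HFpEF+TYA-018 without V2529, V2550, V2551, V2552, V2555, V2559 or V2570, and in HFpEF+SGLT2i without V2561, V2566, V2571, V2572 or V2575. Without the 4 libraries with Alb above 50 TPM the log2 fold changes of Hspa5 were -0.21 (adjusted p = 0.343) and -0.22 (adjusted p = 0.364), and over the alternatives adjusted p ranged from 0.0115 to 0.343 and from 0.00863 to 0.364.

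Several genes lay near the threshold against non_failing. Ern1 in HFpEF+TYA-018 was at -0.33 on the log2 scale (edgeR adjusted p = 0.0541), with all 11 libraries below the non_failing mean, and was called in 9 of 38 fits that left out 1 library (V2502, V2507, V2532, V2543, V2546, V2548, V2549, V2561 or V2566), and on all libraries by DESeq2 and with library size alone. Without the 4 libraries with Alb above 50 TPM it was at -0.27 (adjusted p = 0.220), and adjusted p ranged from 0.0290 to 0.220 over the 46 alternatives. In HFpEF+SGLT2i it was at 0.00 (95% interval -0.22 to 0.21). Hsp90b1 was at -0.22 (adjusted p = 0.0641) and -0.19 (adjusted p = 0.137), Calr at -0.18 (adjusted p = 0.144) and -0.20 (adjusted p = 0.108), and Xbp1 at -0.23 (adjusted p = 0.148) and -0.27 (adjusted p = 0.0981) in HFpEF+TYA-018 and HFpEF+SGLT2i. Without the 4 libraries, Hsp90b1 was at -0.15 and -0.12, Calr at -0.10 and -0.12, and Xbp1 at -0.20 and -0.23, and none was called. Calr in HFpEF+SGLT2i was called without V2510 (adjusted p = 0.0484, range over the 46 alternatives 0.0484 to 0.448). Without V2523, which belongs to neither group but enters the shared estimate of the spread, Xbp1 in HFpEF+SGLT2i was called (-0.27, adjusted p = 0.0384, range 0.0348 to 0.214 over the 46 alternatives), as it was without V2571. Hsp90b1 in HFpEF+TYA-018 was called without V2510, V2523, V2543, V2547, V2548 or V2562, and on all libraries by DESeq2, by limma at both pseudocounts and with library size alone, with adjusted p from 0.0248 to 0.270 over the alternatives.

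A list of 57 other endoplasmic reticulum genes was examined beside the 10, of which 53 were tested. In HFpEF+Veh against non_failing 2 of the 53 were called (3.77%, against 3.15% of all genes), both lower and both folding factors of the lumen. Sdf2l1, a component of a BiP-containing chaperone complex, was 2.02 to 4.82 TPM (median 3.09) in non_failing and 1.44 to 4.15 TPM (median 1.91) in HFpEF+Veh. Manf, which binds BiP and is secreted under stress, was 18.1 to 29.3 TPM (median 23.5) and 14.1 to 24.0 TPM (median 17.3). For each of the 2, 5 of 8 HFpEF+Veh libraries lay below every non_failing library. Log2 fold changes were -0.76 for Sdf2l1 (SE 0.21, edgeR adjusted p = 0.0318) and -0.44 for Manf (SE 0.11, adjusted p = 0.0133). Without V2523, the highest HFpEF+Veh library for both, these were -0.96 and -0.49. With limma on log2(TPM + 1) or log2(TPM + 0.1) 0 of 53 were called, so neither was, and DESeq2 called both. The call of Manf was kept in 38 of 38 fits that left out 1 library, and that of Sdf2l1 was lost in 8 (V2501, V2502, V2504, V2526, V2527, V2528, V2529 or V2530, adjusted p at most 0.0891). Without the 4 libraries with Alb above 50 TPM they were -0.78 (adjusted p = 0.0576) and -0.37 (adjusted p = 0.124), and neither was called. Manf shares its locus with Rbm15b on the same strand and Dcaf1 on the opposite one.

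By role, the 18 folding genes had a median log2 fold change of -0.10 in HFpEF+Veh against non_failing, with 13 negative. The medians were -0.06 for 11 ERAD genes, -0.02 for 12 genes of translocation and transport and 0.03 for 12 signalling genes, and over all genes it was 0.01. Under the drugs 0 of 53 were called against HFpEF+Veh by edgeR, DESeq2 or limma, against 1.93% and 0.850% of all genes by edgeR. Unadjusted p was under 0.05 in 5 genes for TYA-018 and 4 for empagliflozin, against 17.5% and 10% of all genes. The 2 lowest p for TYA-018 were Dnajc3 (-0.25) and Creb3l2 (-0.21), and for empagliflozin Sec61b (-0.38) and Creb3 (-0.13). Between the drugs 0 of 53 were called, with unadjusted p under 0.05 in 8 genes against 13.2% of all genes, the lowest being Sec61b (0.30) and Atf6b (-0.16). Against non_failing, Manf and Sdf2l1 were called lower in both drug groups. Manf was at -0.47 (edgeR adjusted p = 0.00211) and -0.51 (adjusted p = 0.000927), and Sdf2l1 at -0.76 (adjusted p = 0.00939) and -0.83 (adjusted p = 0.00486), in HFpEF+TYA-018 and HFpEF+SGLT2i. HFpEF+TYA-018 also had lower Hyou1 (-0.32), Edem3 (-0.31) and Sec63 (-0.16), and HFpEF+SGLT2i lower Pdia3 (-0.26). Called genes numbered 5 of 53 (9.43%, against 7.39% of all genes) and 3 of 53 (5.66%, against 6.45%), and all were lower. Limma called Hyou1, Manf and Sdf2l1 in the first and Manf and Sdf2l1 in the second, and did not call Edem3, Sec63 or Pdia3. Without the 4 libraries with Alb above 50 TPM, edgeR called Manf in both comparisons and Sdf2l1 in the second.

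The PERK branch, the remaining arm of the response, and transcripts that IRE1 is known to degrade were examined in the same way. Over all genes tested, 0% to 7.39% were called and 10% to 22.0% had an unadjusted p under 0.05 in the 6 comparisons. Of 10 PERK-branch genes 0 were called by edgeR in any of the 6 comparisons, with 1 to 3 at an unadjusted p under 0.05, and DESeq2 called 1 (Asns, higher in HFpEF+SGLT2i than in non_failing). Without the 4 libraries with Alb above 50 TPM, edgeR called Ppp1r15b lower in HFpEF+TYA-018 than in non_failing. In HFpEF+Veh against non_failing their median log2 fold change was 0.17 with 8 of 10 positive, and the lowest p belonged to Asns (0.40, edgeR adjusted p = 0.268) and Atf4 (0.15, adjusted p = 0.392). Of 6 IRE1 decay substrates 0 were called by edgeR in the 6 comparisons, with 0 to 3 at an unadjusted p under 0.05, and DESeq2 called 1 (Col6a1, lower under TYA-018 than in HFpEF+Veh). In HFpEF+Veh against non_failing their median was 0.16, and the lowest p belonged to Pmp22 (0.32, edgeR adjusted p = 0.168) and Scara3 (0.62, adjusted p = 0.199). Markers of plasma and B cells, which express Xbp1 strongly, summed to 8.32 to 26.5 CPM over 9 genes in all libraries, with 0 of 9 called in each comparison by edgeR and 0 at an unadjusted p under 0.05. Of 10 cytosolic heat shock genes 0 were called in HFpEF+Veh against non_failing by edgeR, with 4 at an unadjusted p under 0.05 (15.9% of all genes). Of the 10, 2 (Hspa1a and Dnajb1) were called lower in each drug group against non_failing, where 3.39% (HFpEF+TYA-018) and 2.99% (HFpEF+SGLT2i) of all genes were.

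**Figure D4:**
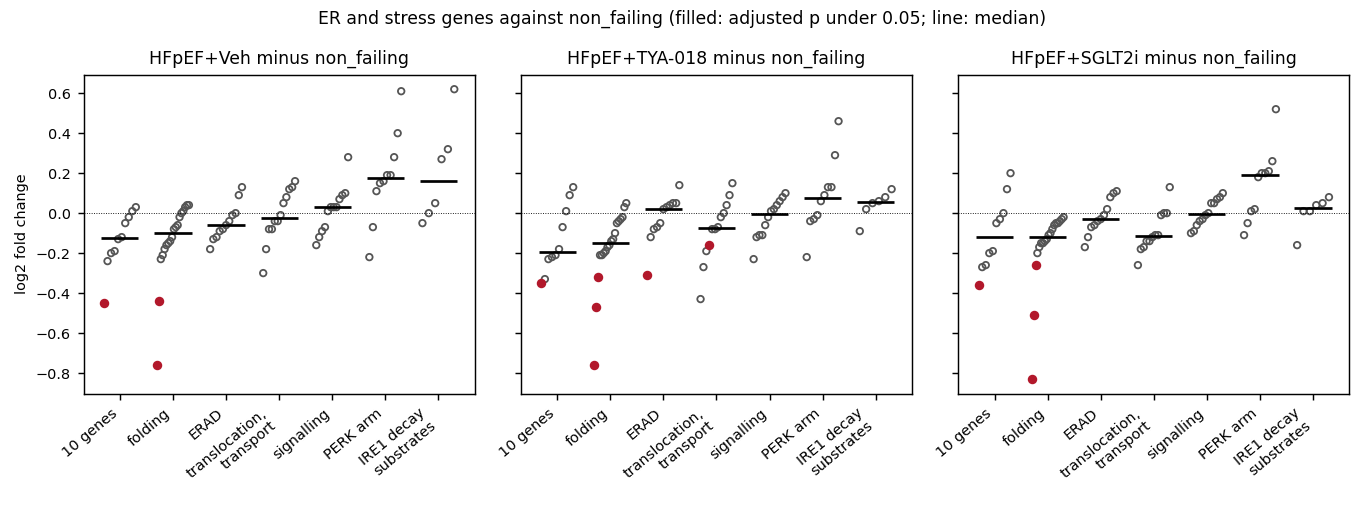
Log2 fold changes against non_failing (vertical axis) of the 10 genes, of 53 other endoplasmic reticulum genes by role, of the PERK branch and of IRE1 decay substrates, with 1 point per gene, filled where the edgeR adjusted p was under 0.05, and the median as a line. All filled points lie below 0, and the folding genes include Sdf2l1 (-0.76 in HFpEF+Veh) and Manf (-0.44).

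The promoter matches printed above gave a division that did not use expression. Of 37 genes with ERSE in a promoter window 17 were tested. In HFpEF+Veh against non_failing their median log2 fold change was -0.14 with 12 negative, where 52.3% of all genes were positive, and 1 (Hspa5) was called, against 3.15% of all genes. The 14 of them outside the 10 genes had a median of -0.05 with 9 negative, against 0.01 over all genes. Among the 10 genes themselves, the 3 with ERSE (Hspa5, Hsp90b1 and Calr) were at -0.45, -0.24 and -0.20 in this comparison. Herpud1 with ERSE-II was at -0.12. Of the 5 with no match, Dnajb9 was at -0.19, Xbp1 at -0.13, and Sel1l, Ern1 and Edem1 at -0.05 to 0.03. The order did not separate genes with and without ERSE in all fits. Without V2523, Calr and Dnajb9 were both at -0.25 and Xbp1 at -0.24, and without the 4 libraries with Alb above 50 TPM, Xbp1 (-0.21) was lower than Calr (-0.17).

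The last comparison asked whether the 10 genes varied together between mice of 1 group. Group means of log2 CPM were subtracted, and 17 of 45 pairs were correlated over the 38 libraries at an adjusted p under 0.05 (permutation within groups, Benjamini-Hochberg over 45 pairs), all of them positively. The strongest pair was Hspa5 with Hsp90b1 (Pearson r = 0.88, Spearman rho = 0.88, r = 0.87 without the 2 libraries farthest from the median of Hspa5). In every pair these 2 libraries were chosen by 1 gene alone, the one named earlier in the opening list of the 10 genes. Permutation p was 0.0001 for both measures, the smallest that 10000 draws can give, and the adjusted p was 0.000643. Hsp90b1 and Calr had r = 0.79 (rho = 0.74, and r = 0.73 without the 2), and Hspa5 and Calr r = 0.75 (rho = 0.72, and r = 0.71 without the 2), with the same permutation p.

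Atf6 was correlated with each of Hspa5, Hsp90b1, Calr and Dnajb9. For Atf6, r was 0.83 with Hspa5 (rho = 0.86, r = 0.81 without the 2 farthest libraries), 0.75 with Dnajb9 (rho = 0.71, 0.70 without the 2) and 0.69 with Hsp90b1 (rho = 0.71, 0.66 without the 2), each at a permutation p of 0.0001. For Xbp1, 3 pairs passed, and r was 0.39 with Hspa5 (rho = 0.49, permutation p = 0.0173, adjusted p = 0.0458). It was 0.59 with Hsp90b1 (rho = 0.59, permutation p = 0.0009, adjusted p = 0.0045) and 0.43 with Calr (rho = 0.37, permutation p = 0.0104, adjusted p = 0.0292). Without the 2 farthest libraries these were 0.38, 0.49 and 0.44, and without V2523 they were 0.33 (adjusted permutation p = 0.160), 0.47 (adjusted p = 0.0196) and 0.31 (adjusted p = 0.204), so that 1 of the 3 pairs passed. With Calr the rank correlation of Xbp1 did not pass (adjusted p = 0.0772), and with Dnajb9 its r was 0.11 (adjusted p = 0.709). The difference between the coefficients of Atf6 and Xbp1 was not tested. Ern1 had r = 0.50 with Atf6 (rho = 0.61), 0.50 with Dnajb9 (rho = 0.55) and 0.48 with Hspa5 (rho = 0.55), or 0.65, 0.46 and 0.51 without the 2 farthest libraries. Permutation p was 0.0044, 0.0017 and 0.0036, and adjusted p 0.0148, 0.00765 and 0.0135.

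The ERAD genes had 0 or 1 passing pair each and the other genes 3 to 6, a difference that was not tested. Without V2523, Xbp1 passed with Hsp90b1 alone. Herpud1 was correlated with 1 of the 9 other genes, Atf6 (r = 0.46, rho = 0.42, permutation p = 0.0046, adjusted p = 0.0148). Without the 2 libraries farthest from the median of Atf6 this r was 0.46. The r of Herpud1 with Hspa5 was 0.17 (rho = 0.20, permutation p = 0.321, adjusted p = 0.516). Sel1l and Edem1 were correlated with 0 of 9 genes, with r between -0.24 and 0.26. Without subtraction of group means 16 of 45 pairs passed, and without V2523 14 of 45 did, the pairs lost being Xbp1 with Hspa5, Xbp1 with Calr, and Calr with Dnajb9. All values come from the same libraries, so shared differences in composition between hearts enter every pair.

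**Figure D5:**
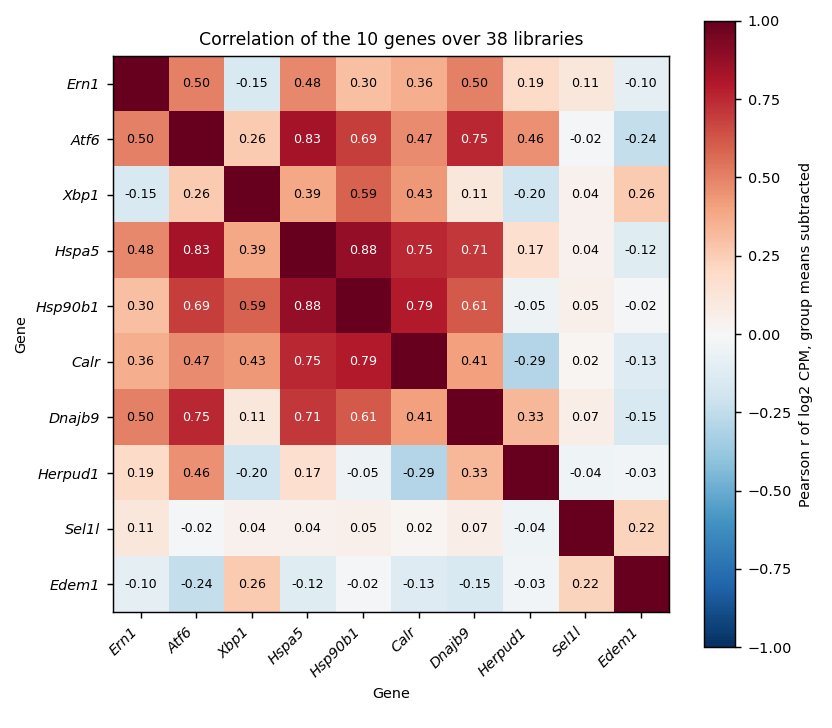
Pearson r between the 10 genes (both axes) over 38 libraries, from log2 CPM with group means subtracted, with colour from -1 (blue) to 1 (red) and the value in each cell. Atf6, Hspa5, Hsp90b1, Calr and Dnajb9 form a positive block (Hspa5 with Hsp90b1 0.88), whereas r of Sel1l and Edem1 with the other genes lies between -0.24 and 0.26.

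Genes outside the 10 whose pattern was most like that of Hspa5, among 11111 genes and over the same 38 group-centred libraries, included Murc (r = 0.92), Casq2 (0.91), Srl (0.90) and Fsd2 (0.89). These 4 were also among the nearest 5 without V2523. Their log2 fold changes in HFpEF+Veh against non_failing were 0.16, 0.02, 0.12 and -0.17, and 0 of the 4 were called by edgeR. For Xbp1 the nearest were Mgst1, Fam107b, Manf, C3 and Sdc4 (r = 0.73 each). Without V2523 only Manf (0.73) and C3 (0.69) remained among the nearest 5, joined by Clec4a1 (0.77), Apod (0.75) and Fcgr2b (0.71).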

How the data were processed

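RNA was measured in left ventricles of 38 mice, 1 library each, with group and mouse number taken from the sample titles. Per the labels and the methods of the study, polyadenylated RNA was sequenced with a stranded kit and quantified with Salmon 1.6.0 on a mouse transcriptome of GRCm38. The labels name a human build, and the labels and methods differ on sex, read layout and length of treatment, which entered no test. The authors summed transcripts to genes. They deposited expected counts (estimated reads per gene, fractional where reads are shared), TPM values (scaled by the authors per library and per effective length), and effective lengths. Unmapped columns numbered 0.

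For testing, the estimates were rounded to integers. The filterByExpr function kept 13765 of 29564 genes, which were scaled with TMM and tested with the two-sided quasi-likelihood test of edgeR 4.0.16 (R 4.3.3) in 1 model of 4 groups without covariates. Benjamini-Hochberg adjustment ran over every tested gene, and calls needed an adjusted p under 0.05. The study used log2(TPM + 1). Levels are given as TPM and differences as log2 fold changes of TMM-scaled counts. Summed CPM values of marker lists are scaled to library totals alone, not with TMM factors as the log2 fold changes are. Log2 CPM values are TMM-scaled, with a prior count of 2. A library counts as lying in a direction by its TPM against the mean TPM of the other group.

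Alternatives were library size alone, no filter, an offset for the deposited lengths, fits of 2 groups, DESeq2 1.42.0, limma 3.58.1 on log2(TPM + 1) and log2(TPM + 0.1), and each of the 38 libraries left out. A fit without the 4 libraries with Alb above 50 TPM was added after the data were seen. The edgeR test was tested on simulated data. Coordinates of windows are from RefSeq and gene models from GENCODE M21, on the same assembly. Matches were searched with Python 3.11.15.

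All 10 genes are named in every comparison. Of the other endoplasmic reticulum, PERK-branch and IRE1 decay lists the called genes are named, otherwise the 2 with the smallest p, and likeness names the 5 genes with the highest Pearson r (average log2 CPM of at least 1), of which 1 is not reported here. The 10 genes, the lists and the tests were chosen with earlier results of these data known. No source says that libraries share litters or extraction batches.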

Additional observations from a re-analysis of the deposited data

Results flagged for a closer look

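Xbp1 in HFpEF+Veh V2523 was at 36.9 TPM, far above the 7 other libraries of its group, and its distance to the nearest of them was 0.736 of the range of the whole group. Of the 10 genes in the 2 groups of 8 mice, 20 sets of libraries were examined in this way. Chance alone marks about 1 in 20 such sets. V2523 is the library with 493 TPM of Alb, and the part of its liver transcripts in its Xbp1 value was not tested.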

How the results depend on the processing

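The number of the 10 genes called was 1 in HFpEF+Veh against non_failing, 1 in each drug group against non_failing and 0 in the 3 other comparisons. For HFpEF+Veh against non_failing it was 0 with library size alone, 0 with limma on log2(TPM + 1) or log2(TPM + 0.1) and 0 without the 4 libraries with Alb above 50 TPM (log2 fold changes of Hspa5 -0.38, -0.35, -0.35 and -0.36). For HFpEF+TYA-018 against HFpEF+Veh it was 1 (Ern1) with library size alone. For HFpEF+TYA-018 against non_failing it was 3 with library size alone, 3 with DESeq2, 2 with limma at either pseudocount, and 0 without a filter, with the 2 groups alone or without the 4 libraries. For HFpEF+SGLT2i against non_failing it was 0 with library size alone, without a filter, with the 2 groups alone or without the 4 libraries. Leaving out 1 library gave 0 to 2 genes for HFpEF+Veh, 0 to 3 for HFpEF+TYA-018 and 0 to 2 for HFpEF+SGLT2i against non_failing, and 0 in the other comparisons. The cause of these changes was not tested, other than that leaving out libraries leaves fewer of them.

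Small log2 fold changes, none of them called, turned direction. In HFpEF+Veh against non_failing Ern1 was 0.04 with library size alone, 0.02 and 0.03 with limma and 0.04 without the 4 libraries, and -0.10 to 0.02 with 1 library left out. Atf6 was -0.02 with the length offset and -0.11 to 0.07 with 1 library left out. Sel1l was 0.02 with library size alone and 0.04 and 0.05 with limma. Edem1 was -0.09 without the 4 libraries and -0.03 to 0.08 with 1 left out. In HFpEF+TYA-018 against HFpEF+Veh, library size alone gave -0.03 for Hspa5, -0.11 for Hsp90b1 and -0.10 for Calr, limma gave -0.05, -0.12 and -0.12 at both pseudocounts, and Xbp1 was 0.01 without the 4 libraries. With 1 library left out Hsp90b1 ran from -0.01 to 0.08, Calr from -0.01 to 0.07 and Xbp1 from -0.15 to 0.02. In HFpEF+SGLT2i against HFpEF+Veh, Hspa5 was -0.02 with limma, Hsp90b1 -0.03 with library size alone and -0.05 with limma, and Ern1 -0.06 with library size alone, -0.01 with limma and -0.02 to 0.10 with 1 library left out. In HFpEF+TYA-018 against HFpEF+SGLT2i, Hspa5 was -0.04 with library size alone, -0.03 with limma and -0.05 to 0.07 with 1 library left out. The cause was not tested. Directions were read at 2 decimals. Calr in HFpEF+SGLT2i against HFpEF+Veh, at 0.00, had none and ran from -0.02 to 0.05 with 1 library left out. Of the other values, Calr included, 1643 did not turn and kept their side of the threshold, 73 lost their call and 27 gained one.

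With library size alone the median log2 fold change of all genes was -0.14 in HFpEF+TYA-018 against HFpEF+Veh. With limma on log2(TPM + 1) and log2(TPM + 0.1) it was -0.084 and -0.115. In the same order, the medians were -0.0705, -0.0415 and -0.0567 in HFpEF+SGLT2i against HFpEF+Veh. Between the drugs they were -0.0567, -0.0356 and -0.0494, and in HFpEF+Veh against non_failing 0.0804, 0.0629 and 0.0858. Signs under these scalings are relative to those medians. The correlation of Atf6 and Hspa5 was 0.61 without subtraction of group means. Over all genes tested, calls in HFpEF+TYA-018 against HFpEF+Veh numbered 266, but 1096 with library size alone, 618 without a filter, 402 with DESeq2, 58 with the 2 groups alone and 42 and 24 with limma. In HFpEF+SGLT2i against HFpEF+Veh they numbered 117, but 457 without a filter, 3 with the 2 groups alone, 3 without the 4 libraries and 0 with limma. Against non_failing, limma gave 597 and 616 in place of 1017 for HFpEF+TYA-018 and 527 and 558 in place of 888 for HFpEF+SGLT2i, and 171 in place of 433 were called for HFpEF+Veh without the 4 libraries. Between the drugs the length offset gave 5 and DESeq2 185 in place of 0. No paired analysis was possible because mouse numbers differ in every group. Ern1 had the lowest counts of the 10 genes (109 to 606), and those of Sdf2l1 were lower (41 to 168).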
